A study of Mus musculus with 6 samples.

Results

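Interferon regulatory factors (IRFs) and signal transducers and activators of transcription (STATs) are the transcription factors through which dendritic cells turn microbial and cytokine signals into interferon-dependent gene expression. The 10 genes described here are Irf1, Irf2, Irf3, Irf5, Irf7, Irf9, Stat2, Stat3, Stat5a and Stat6. They were taken by gene symbol, and 10 of the 10 had at least 1 annotated probe on the array, giving 19 probes of 25697. Each of the 19 probes was detected on all 6 arrays, so the filter on dim probes removed none. Only probes detected on at least 3 arrays were named, so dimmer probes of these genes could not be counted. The 10 genes were tested among 7897 genes.

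The cells were dendritic cells grown for 6 days from bone marrow of a 6-week-old mouse with a knockout of Rag2, a gene needed to assemble antigen receptors, in medium with 1.5 ng/ml GM-CSF and 1.5 ng/ml IL-4. The genotype is written C57BL/10NAGCSnAi-(KO) Rag2 in the labels, and every group carries it and received both cytokines. The LPS group (n = 2) received 1 µg/ml lipopolysaccharide, the bacterial ligand of Toll-like receptor 4, for 18 h. The ROS group (n = 2) received 1 µg/ml hematoporphyrin, a photosensitiser, for 1 h, was washed, and was illuminated (3 min at 3.1 mW/cm2, a diode emitting between 450 and 600 nm with its peak at 515 nm) to generate reactive oxygen species, with 18 h of culture after it. The unstimulated group (n = 2) received neither stimulus, and the labels do not say whether it had hematoporphyrin, light or the extra 18 h of culture. The labels do not say that replicates came from separate animals or cultures, so the p-values measure the spread between these arrays, which may be technical.

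RNA was measured on a 1-colour Illumina bead array. Levels below are log2 values after background correction, an added offset of 16 and quantile normalisation, and compare arrays for 1 probe, never different probes. Fold changes are log2 differences with the standard error (SE) of limma's fit, and a gene "rose" or "fell" where limma's Benjamini-Hochberg adjusted p, over all kept probes, was under 0.05. Where a gene has several probes, its brightest represents it and the others are given too. The mean signal per array was 529 to 545 in LPS, 626 to 643 in ROS and 704 to 765 in unstimulated cells. Arrays of a group correlated at 0.988 to 0.993 over the kept probes, and arrays of different groups at 0.873 to 0.939.

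IRF3, IRF5 and IRF7 lie in the cytoplasm until Toll-like or nucleic acid receptors lead to their phosphorylation, after which they enter the nucleus and switch on interferon genes. Secreted type I interferon acts back on the cells through JAK kinases, which phosphorylate STAT2. With IRF9 it forms part of the complex ISGF3, which binds the interferon-stimulated response element (ISRE), while STAT dimers bind the gamma-activated site (GAS) upstream of genes such as Irf1. STAT3, STAT5 and STAT6 relay IL-6 and IL-10, GM-CSF, and IL-4 signals, and IRF2 often opposes IRF1 at shared sites. The arrays measure the mRNA of these factors, not their phosphorylation.

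Promoter windows of the members were read from RefSeq (GRCm38.p6), from 250 bases before to 50 bases after the annotated start, and all 10 members matched, with 13 windows. The ISRE core, GAAA and GAAA with any 2 bases between, was searched on both strands and was in 2 of the 13 windows (Irf2 and Stat2) and in 3.44% of 32851 promoter windows. The GAS letters TTCNNNGAA were in 2 of the 13 (Irf1 and Irf2) and in 8.30% of all windows. The wider spacing preferred by STAT6, TTC and GAA with any 4 bases between, was in 2 (Irf9 and Stat2; 6.95% of all windows) and the NF-kappaB motif in 3 (Irf1, Irf2 and Stat5a; 8.46%). These matches overlapped no ISRE core or GAS. Shown are the 3 windows that hold an ISRE core or a GAS (Irf1, Stat2 and Irf2) and that of Irf7, the member with the largest change. The second Irf1 window and both Irf9 windows hold neither and are not printed. ISRE cores and GAS letters are in capitals, and each sequence runs 5′ to 3′ on the gene's strand.
Irf1 (chr11:53769764-53770063, plus strand): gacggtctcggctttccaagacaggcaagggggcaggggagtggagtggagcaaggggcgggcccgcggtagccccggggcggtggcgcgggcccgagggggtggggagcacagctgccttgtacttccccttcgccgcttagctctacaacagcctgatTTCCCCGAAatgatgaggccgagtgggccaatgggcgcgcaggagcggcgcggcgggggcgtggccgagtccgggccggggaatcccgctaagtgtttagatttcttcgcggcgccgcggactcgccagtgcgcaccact
Stat2 (chr10:128270248-128270547, plus strand): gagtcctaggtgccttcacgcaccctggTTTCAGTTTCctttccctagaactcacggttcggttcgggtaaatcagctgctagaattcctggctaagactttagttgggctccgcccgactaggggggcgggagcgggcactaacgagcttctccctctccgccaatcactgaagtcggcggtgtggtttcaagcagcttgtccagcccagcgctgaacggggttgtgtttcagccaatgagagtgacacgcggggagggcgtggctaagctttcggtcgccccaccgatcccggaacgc
Irf2 (chr8:46739495-46739794, plus strand): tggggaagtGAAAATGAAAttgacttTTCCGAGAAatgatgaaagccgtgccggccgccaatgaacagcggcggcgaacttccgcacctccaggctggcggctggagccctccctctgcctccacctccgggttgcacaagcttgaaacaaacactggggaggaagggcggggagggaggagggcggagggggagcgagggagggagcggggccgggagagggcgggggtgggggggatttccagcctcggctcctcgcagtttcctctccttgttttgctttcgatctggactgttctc
Irf7 (chr7:141266375-141266674, minus strand): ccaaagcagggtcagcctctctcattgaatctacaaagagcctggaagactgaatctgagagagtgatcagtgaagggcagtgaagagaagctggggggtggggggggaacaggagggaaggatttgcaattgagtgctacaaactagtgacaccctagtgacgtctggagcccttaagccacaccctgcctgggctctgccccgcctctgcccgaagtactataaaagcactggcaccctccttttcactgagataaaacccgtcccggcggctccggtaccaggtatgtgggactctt
The GAS of Irf1 was centred 85.5 bases before the start. The ISRE core of Stat2 lay on the opposite strand, 217 bases before the start, and those of Irf2 were an ISRE core at 236 and a GAS at 219.5 bases before it. No motif searched was found in the Irf7 window, which says only that these letters are not in this window. A match is a description of the letters and shows no binding.

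After LPS, 4 of the 10 genes rose against unstimulated cells (Irf1, Irf7, Irf9 and Stat2), 1 fell (Irf2) and 5 did not pass the test. Over all genes tested 53.7% were called in this comparison, 24.7% up and 29.0% down. After ROS, 5 rose (Irf1, Irf7, Irf9, Stat2 and Stat5a) and the other 5 did not pass, where 39.8% of all genes were called, 21.8% up and 18.0% down. None of the members fell in limma's test after ROS, while 1 was lower at an unadjusted p under 0.05 and 1 fell on the authors' log2 values. The median log2 fold change of the members was 0.23 after LPS and 0.51 after ROS, against -0.05 and 0.05 over all genes. The share of members called was below the share of all genes after LPS and above it after ROS, so the counts alone do not set the families apart. What differs within them is size, since log2 changes ran from -0.45 to 7.90 after LPS and from -0.39 to 3.03 after ROS.

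**Figure D1:**
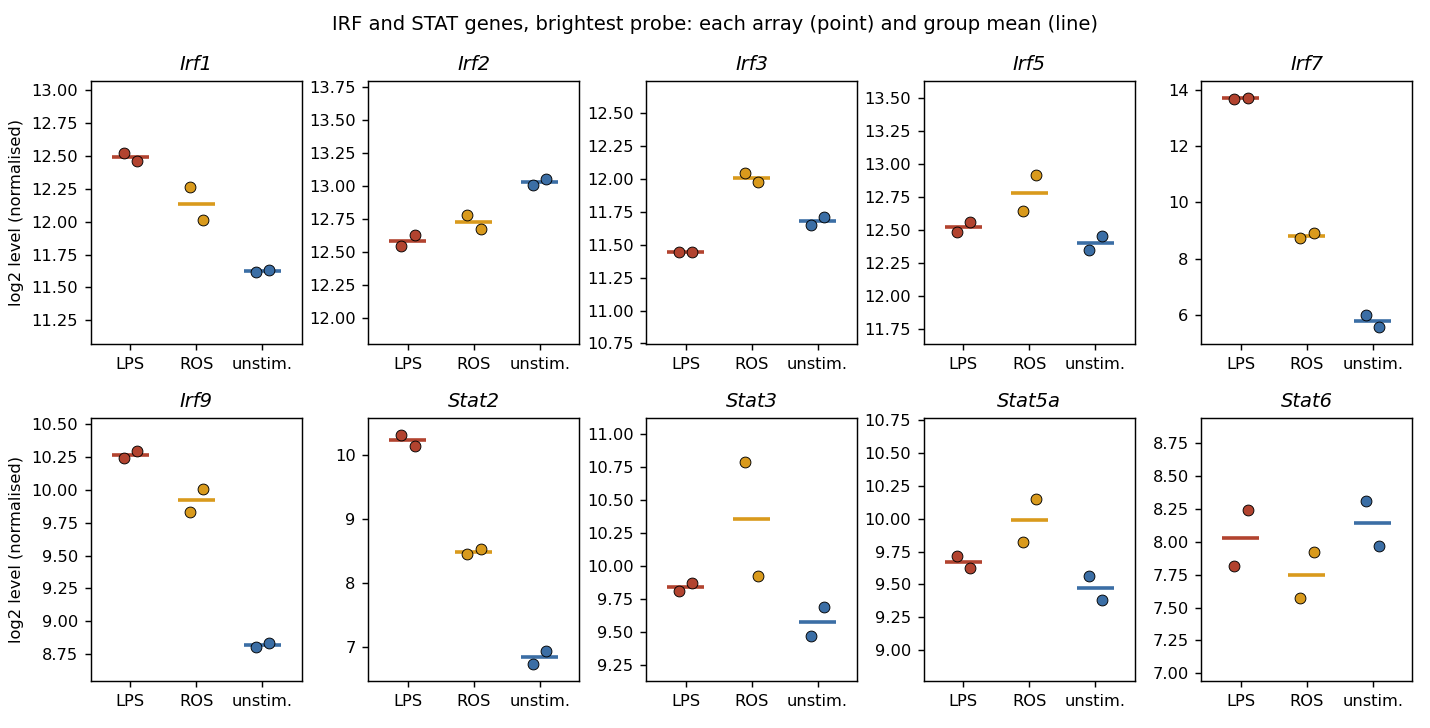
Normalised log2 level of each of the 10 genes (brightest probe) on each array, in the LPS, ROS and unstimulated groups (2 points each; line, group mean). The vertical scale differs between panels. Irf7, Stat2, Irf9 and Irf1 stand in the order LPS, ROS, unstimulated with no overlap between neighbouring groups, Irf2 runs the other way, and the ROS arrays of Stat3 stand at 10.79 and 9.92.

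Irf7, the IRF that amplifies type I interferon production and is itself induced by interferon, moved most among the 10. Its log2 level was 13.69 and 13.70 on the LPS arrays, 8.75 and 8.90 on the ROS arrays, and 6.01 and 5.58 on the unstimulated arrays. The 3 groups do not overlap, and the ROS arrays lie between the others. In bulk RNA a change in level per cell and a change in the share of cells that express a gene cannot be told apart. The log2 fold change was 7.90 ± 0.17 for LPS against unstimulated (limma, adjusted p = 5.31e-06) and 3.03 ± 0.17 for ROS against unstimulated (limma, adjusted p = 0.000165). LPS against ROS gave 4.87 ± 0.17 (limma, adjusted p = 1.18e-05). The unstimulated signals, 219 and 191 before correction, lay just above the detection limits of 181 and 179 of those arrays, so the size depends on the background. On the authors' log2 values, the changes were 6.16, 1.64 and 4.52 in the same order.

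Stat2, the ISGF3 subunit that carries its main activation domain, followed the same order with smaller changes. Its log2 level was 10.32 and 10.15 on the LPS arrays, 8.45 and 8.53 on the ROS arrays, and 6.73 and 6.94 on the unstimulated arrays. No arrays of different groups overlap. Stat2 was 3.40 ± 0.13 higher on the log2 scale after LPS (limma, adjusted p = 1.52e-05) and 1.66 ± 0.13 higher after ROS (limma, adjusted p = 0.000426), both against unstimulated cells. LPS exceeded ROS by 1.74 ± 0.13 (limma, adjusted p = 0.000144). On the authors' log2 values the 3 differences were 2.44, 1.00 and 1.45.

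Irf9, the subunit of ISGF3 that recognises the ISRE core, rose after both stimuli. Its brightest probe stood at log2 10.24 and 10.29 on the LPS arrays, 9.83 and 10.01 on the ROS arrays, and 8.80 and 8.83 on the unstimulated arrays. Both stimulated groups lie clear of the unstimulated arrays, and the gap between LPS and ROS is small. The change was 1.45 ± 0.12 after LPS (limma, adjusted p = 0.000215) and 1.10 ± 0.12 after ROS (limma, adjusted p = 0.00115). The second probe gave 1.28 ± 0.14 after LPS and 1.32 ± 0.14 after ROS, and passed in both. For LPS against ROS the brightest probe gave 0.35 ± 0.12 (limma, adjusted p = 0.0463), a call lost or reversed under 12 of 17 alternatives, with adjusted p between 0.0103 and 0.979. The second probe gave -0.04 ± 0.14 there, so a difference of Irf9 between the 2 stimuli rests on 1 probe.

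Irf1, induced by interferon-gamma and an activator of antigen-presentation genes, rose after both stimuli on all 4 of its probes. Its brightest probe stood at log2 12.52 and 12.46 on the LPS arrays, 12.26 and 12.01 on the ROS arrays, and 11.62 and 11.63 on the unstimulated arrays. The groups do not overlap, and the ROS arrays are the more spread. The change was 0.86 ± 0.13 after LPS (limma, adjusted p = 0.00234) and 0.51 ± 0.13 after ROS (limma, adjusted p = 0.0235). The 3 dimmer probes gave 1.59, 1.64 and 2.00 after LPS and 0.92, 0.99 and 1.42 after ROS, so the brightest probe showed the smallest change. On the authors' log2 values these 3 gave 1.52, 1.03 and 1.18 after LPS and 0.87, 0.57 and 0.77 after ROS. The brightest probe gave 0.84 and 0.49 on those values. For LPS against ROS, where 55.7% of all genes were called, the brightest probe did not pass (0.35 ± 0.13; limma, adjusted p = 0.0577). The dimmer 3 did, at 0.67, 0.65 and 0.58, calls kept under 16, 13 and 6 of 16 alternatives run per probe. With no scaling they were at 0.44, -0.0025 and -0.07. The ROS call of the brightest probe was lost without ROS array 1 (0.39), unstimulated array 1 (0.50) or unstimulated array 2 (0.52), and under median scaling (0.40) or no scaling (0.29).

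Irf2, known mainly as a repressor that competes with IRF1, was the 1 member called as lower after LPS. Its log2 level was 12.54 and 12.63 on the LPS arrays, 12.78 and 12.67 on the ROS arrays, and 13.01 and 13.05 on the unstimulated arrays. Every stimulated array is below both unstimulated arrays. The change was -0.45 ± 0.11 after LPS (limma, adjusted p = 0.0175) and -0.31 ± 0.11 after ROS (limma, adjusted p = 0.0743). The LPS call was lost without LPS array 1 (-0.40), unstimulated array 1 (-0.47) or unstimulated array 2 (-0.42). LPS and ROS differed by -0.14 ± 0.11 (limma, adjusted p = 0.332).

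Irf3, the constitutive IRF that acts downstream of TRIF and STING, differed between the 2 stimuli. Its brightest probe stood at log2 11.45 on both LPS arrays, 12.04 and 11.98 on the ROS arrays, and 11.65 and 11.71 on the unstimulated arrays. LPS arrays lie lowest and ROS arrays highest, without overlap. LPS was below ROS by -0.56 ± 0.11 on the log2 scale (limma, adjusted p = 0.00579), while neither LPS (-0.23, adjusted p = 0.116 by limma) nor ROS (0.33, adjusted p = 0.0533 by limma) passed against unstimulated cells. The other probes gave 0.03 ± 0.13 and -0.38 ± 0.15 for LPS against ROS and did not pass. As the mean of the gene's probes the difference was -0.30 (limma, adjusted p = 0.0518). The probes of Irf3 therefore do not give 1 answer.

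Irf5, which acts with MyD88 to induce inflammatory cytokines such as IL-12, did not pass in any comparison. Its log2 level was 12.48 and 12.56 on the LPS arrays, 12.64 and 12.92 on the ROS arrays, and 12.35 and 12.45 on the unstimulated arrays. The ROS arrays were the highest and the LPS arrays stood between them and the unstimulated arrays. The changes were 0.12 ± 0.14 after LPS (limma, adjusted p = 0.483) and 0.38 ± 0.14 after ROS (limma, adjusted p = 0.069). LPS against ROS was -0.26 ± 0.14 (limma, adjusted p = 0.152).

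Stat3, the STAT of IL-6 and IL-10 signalling, split by probe and by ROS array. Its brightest probe stood at log2 9.81 and 9.87 on the LPS arrays, 10.79 and 9.92 on the ROS arrays, and 9.47 and 9.69 on the unstimulated arrays. Its second probe showed the same split of the ROS arrays, 10.43 and 9.22, against 9.28 and 9.33 on the unstimulated arrays. ROS array 1 was thus the high array on both probes. The brightest probe gave 0.78 ± 0.28 after ROS (limma, adjusted p = 0.0714), 0.34 without ROS array 1 and 1.21 without ROS array 2. The third and dimmest probe did not split the ROS arrays, with 8.51 and 8.66 on the LPS arrays, 8.16 and 8.29 on the ROS arrays, and 7.77 and 7.71 on the unstimulated arrays. It rose after LPS (0.85 ± 0.12; limma, adjusted p = 0.00198) and after ROS (0.48 ± 0.12; limma, adjusted p = 0.0229). LPS against ROS gave 0.36 ± 0.12 on this probe (limma, adjusted p = 0.0433). Its ROS call was lost on leaving out any 1 ROS or unstimulated array (0.42 to 0.55), and its call in LPS against ROS on leaving out any 1 of the 6 arrays (0.29 to 0.44). Without scaling the third probe was at -0.05 after LPS and 0.25 after ROS and passed in neither, and LPS against ROS was -0.30.

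Stat5a, a mediator of GM-CSF signalling, passed after ROS and did not pass after LPS. Its brightest probe stood at log2 9.71 and 9.62 on the LPS arrays, 9.82 and 10.15 on the ROS arrays, and 9.56 and 9.38 on the unstimulated arrays. The change was 0.51 ± 0.15 after ROS (limma, adjusted p = 0.041) and 0.20 ± 0.15 after LPS (limma, adjusted p = 0.322). LPS and ROS did not differ past the threshold (-0.32 ± 0.15; limma, adjusted p = 0.126), so a response particular to ROS is not shown. The second probe gave 0.65 ± 0.22 after ROS and 0.62 ± 0.22 after LPS and passed in neither. The ROS call was lost under 7 of 17 alternatives, among them leaving out ROS array 2 (0.35), unstimulated array 1 (0.61) or unstimulated array 2 (0.42).

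Stat6, the STAT of IL-4 signalling, did not pass in any comparison as normalised here, and its arrays overlap between LPS and unstimulated cells. Its log2 level was 7.81 and 8.24 on the LPS arrays, 7.57 and 7.92 on the ROS arrays, and 8.31 and 7.97 on the unstimulated arrays. The changes were -0.11 ± 0.22 after LPS (limma, adjusted p = 0.687) and -0.39 ± 0.22 after ROS (limma, adjusted p = 0.198). Both ROS arrays lie below both unstimulated arrays. LPS against ROS was 0.28 ± 0.22 (limma, adjusted p = 0.31). After LPS Stat6 was called as lower with median scaling (-0.79; limma, adjusted p = 0.0183) and with no scaling (-1.03; limma, adjusted p = 0.00344).

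**Figure D2:**
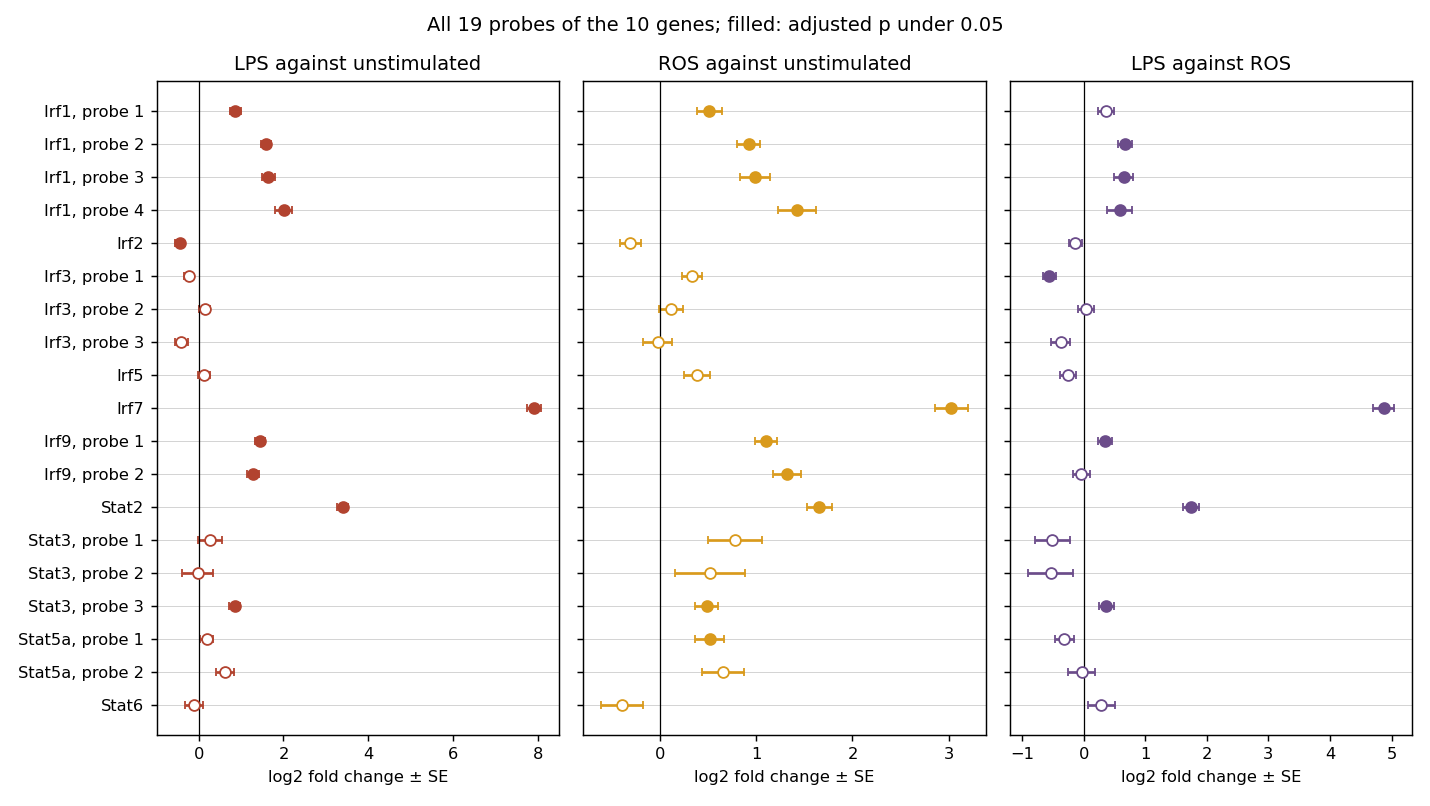
Log2 fold change (point) with its SE (bar) for the 19 probes of the 10 genes in LPS against unstimulated, ROS against unstimulated and LPS against ROS; filled points have limma's adjusted p under 0.05, and each panel has its own horizontal scale. Irf7 reaches 7.90, 3.03 and 4.87 and Stat2 3.40, 1.66 and 1.74, while most other probes lie within 1 of 0.

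By probe, 9 of the 19 rose, 1 fell and 9 did not pass after LPS. After ROS, 10 rose and 9 did not pass. In LPS against ROS 7 rose, 1 fell and 11 did not pass. By gene, LPS against ROS had 3 higher (Irf7, Irf9 and Stat2), 1 lower (Irf3) and 6 that did not pass, with a median of 0.07 against -0.08 over all genes. Of all genes 24.9% were called up and 30.9% down there. Of the 6 IRFs, 3 rose and 1 fell after LPS and 3 rose after ROS. Of the 4 STATs, 1 rose after LPS and 2 rose after ROS. The comparisons with unstimulated cells share those arrays.

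The order of the 3 groups differed between genes. LPS was highest, ROS in the middle and unstimulated cells lowest for Irf1, Irf7, Irf9 and Stat2. Every neighbouring pair of groups differed past the threshold for Irf7, Stat2 and Irf9. The Irf9 call in LPS against ROS was kept under only 5 of 17 alternatives, and its second probe gave -0.04 there. For Irf1 LPS and ROS did not differ past the threshold. ROS was highest for Irf3, Irf5, Stat3 and Stat5a, and unstimulated cells were highest for Irf2 and Stat6. In those 6 genes no neighbouring pair in the order differed past the threshold. The arrays of the groups did not overlap for 9 of the 10 genes in LPS against unstimulated, 10 in ROS against unstimulated and 9 in LPS against ROS. Over all genes this was so for 78.8%, 73.8% and 78.6%.

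**Figure D3:**
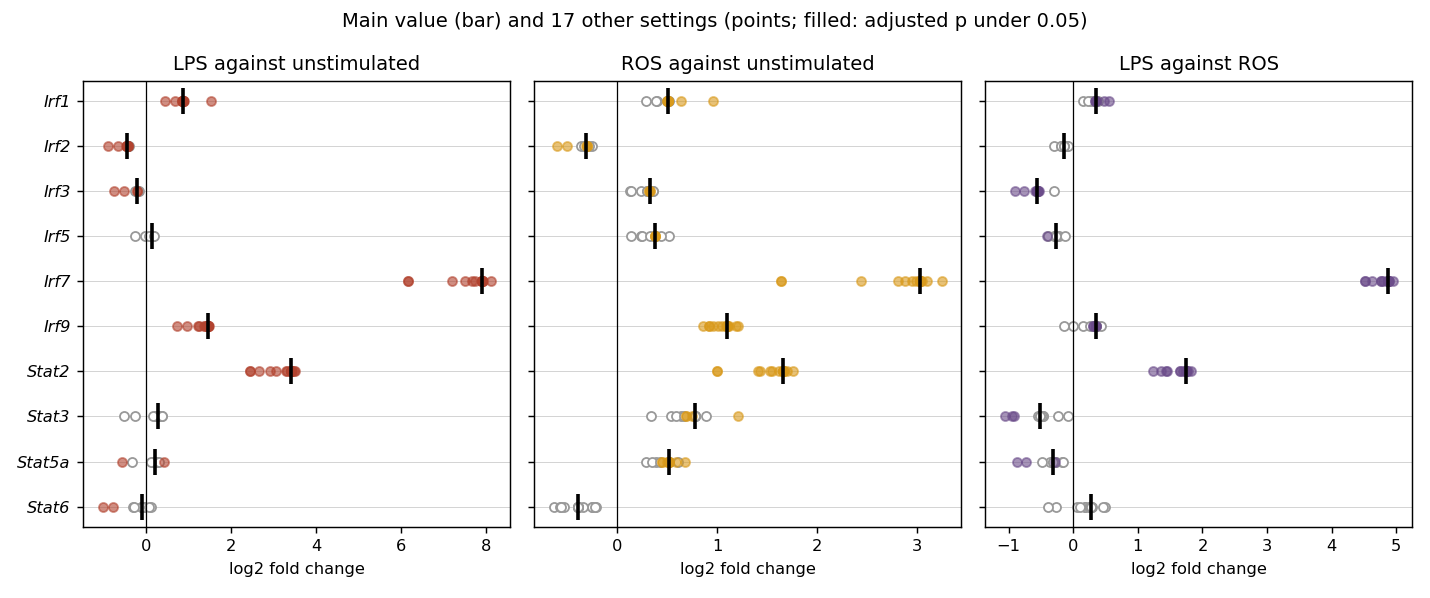
Log2 fold change of each gene in the 3 comparisons as reported (bar) and under 17 other settings of background, scaling, filter, probe choice and left-out arrays (points; filled where limma's adjusted p was under 0.05). Irf7 and Stat2 stay filled in every panel, from 6.16 to 8.12 and from 2.44 to 3.50 after LPS, while Stat5a after LPS runs from -0.58 to 0.41 across 0.

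The calls of Irf7 and Stat2 in all 3 comparisons, of Irf9 after LPS and after ROS, and of Irf1 after LPS were kept under each of the 17 alternatives. Their ranges after ROS were 1.64 to 3.25 for Irf7, 1.00 to 1.76 for Stat2 and 0.86 to 1.21 for Irf9. After LPS, Irf9 ranged from 0.72 to 1.47 and Irf1 from 0.44 to 1.52.

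The genes whose pattern was most like each member's were found by the Euclidean distance between log2 levels over the 6 arrays, each gene centred on its own mean. Nearest to Irf7 were Ifit3 (distance 0.776), Isg15 (0.837) and Rsad2 (0.957), which are antiviral genes induced by interferon. Nearest to Stat2 were Cd200 (0.225), Trex1 (0.338) and Eif2ak2 (0.347). Nearest to Irf9 were Gja5 (0.159), Ttpal (0.212) and Rad9a (0.212), and nearest to Irf1 were Ube2e3 (0.106), Stk19 (0.178) and Ift27 (0.179). Among the members, Irf5 and Stat5a were each other's nearest, at 0.274, and so were Irf1 and Irf9, at 0.746. The member nearest to Irf7 was Stat2, at 4.64, with 0.95% of all genes nearer. Genes that change little lie close to many others by this distance, so the values are a description only.

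Of 14 measured interferon and cytokine receptors that feed the STATs (20 listed), 5 rose and 4 fell after LPS, while 7 fell and 7 did not pass after ROS. In LPS against ROS 7 were higher and 1 lower. Over all genes 24.7% rose and 29.0% fell after LPS, 21.8% and 18.0% after ROS, and 24.9% and 30.9% in LPS against ROS. Over the 17 alternatives 2 to 6 of the receptors rose and 2 to 8 fell after LPS, and 4 to 8 fell after ROS. Ifngr1, the ligand-binding chain of the interferon-gamma receptor, fell after LPS (-2.53 ± 0.11; limma, adjusted p = 2.07e-05) and after ROS (-2.29 ± 0.11; limma, adjusted p = 0.000103). Il6st, the shared gp130 chain of the IL-6 family receptors, was at -1.35 ± 0.18 after ROS, and Csf2ra, the alpha chain of the GM-CSF receptor, at -1.28 ± 0.19. Ifnlr1, a chain of the interferon-lambda receptor, fell after LPS (-2.28 ± 0.13), and Osmr, the oncostatin M receptor, rose (1.45 ± 0.13). Of 3 measured JAK kinases (4 listed), Tyk2, which serves the type I interferon receptor, fell after LPS (-1.08 ± 0.12; limma, adjusted p = 0.000818). Jak2 and Jak3 did not pass, and after ROS none of the 3 passed, also at an unadjusted p under 0.05. Over the alternatives 1 to 3 of the 3 fell after LPS, and their median, -0.32 as reported, was -1.25 with no scaling. Of the other family genes listed, 3 of 6 were measured. Stat4, which relays IL-12, fell after LPS (-1.24 ± 0.11) and rose after ROS (0.69 ± 0.11), and Irf4 and Irf8 passed in neither. Over the alternatives 1 to 3 of these 3 fell after LPS, with a median of -1.17 with no scaling against -0.22 as reported.

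Of 15 measured adaptors, sensors and kinases upstream of the IRFs (24 listed), 7 rose and 1 fell after LPS, and 2 rose and 5 fell after ROS. Over all genes 53.7% were called after LPS, 24.7% up and 29.0% down, and 39.8% after ROS, 21.8% up and 18.0% down. The shares called in either direction, here and for the inhibitors below, are near or under the background and are no result about the lists. By direction, the shares of the 15 that rose after LPS and fell after ROS were above those of all genes, which was not tested. In LPS against ROS 10 were higher and 1 lower, where 24.9% and 30.9% of all genes were. Under the alternatives 3 to 7 rose and 1 to 6 fell after LPS, and 2 to 4 rose and 4 to 6 fell after ROS. After LPS, Ddx58, the RNA sensor RIG-I, rose by 3.71 ± 0.19, Tlr7 by 2.01 ± 0.12 and the adaptor Myd88 by 1.10 ± 0.12. After ROS, Ddx58 rose by 1.53 ± 0.19, while Ticam2, the adaptor that links Toll-like receptor 4 to TRIF, was at -3.03 ± 0.18 and Unc93b1, a chaperone of endosomal Toll-like receptors, at -1.17 ± 0.15. Of 16 measured inhibitors (20 listed), 4 rose and 3 fell after LPS, and 5 rose and 1 fell after ROS, while under the alternatives up to 12 fell after LPS. Socs3, the feedback inhibitor of STAT3 signalling, rose after LPS (1.32 ± 0.11; limma, adjusted p = 0.000216) and fell after ROS (-1.95 ± 0.11; limma, adjusted p = 0.000159). LPS exceeded ROS by 3.26 ± 0.11 for Socs3 (limma, adjusted p = 9.68e-06). Socs2 ran the other way, at -1.32 ± 0.15 after LPS and 1.21 ± 0.15 after ROS. Usp18, which restrains the type I interferon receptor, rose after both, by 4.05 ± 0.12 after LPS and 1.80 ± 0.12 after ROS.

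**Figure D4:**
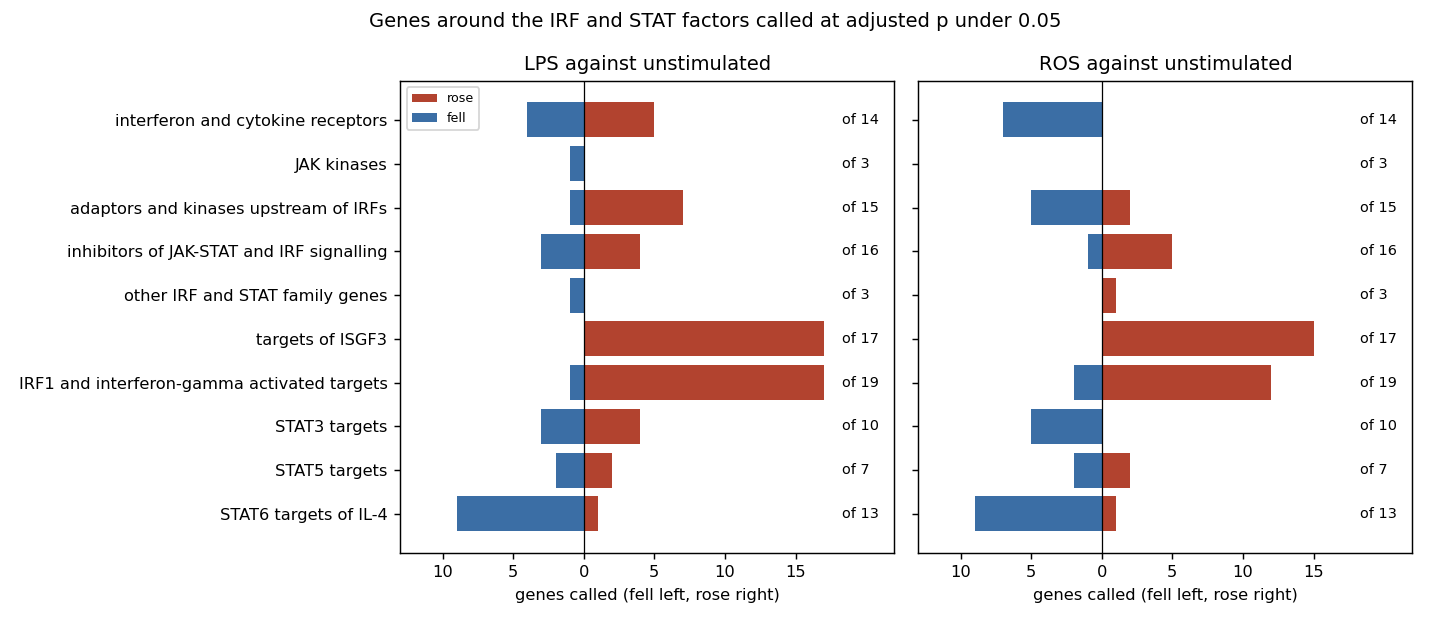
Number of measured genes in each list that fell (left of 0) or rose (right of 0) at limma's adjusted p under 0.05, after LPS and after ROS, both against unstimulated cells; the number measured stands at the right of each bar. Targets of ISGF3 show 17 of 17 after LPS and 15 of 17 after ROS on the right, and STAT6 targets of IL-4 show 9 of 13 on the left in both panels.

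Of 17 measured targets of ISGF3 (22 listed), 17 rose after LPS and 15 after ROS, and 17 were higher after LPS than after ROS, with median log2 changes of 4.93, 1.87 and 2.84. The shares of all genes called as higher in these comparisons were 24.7%, 21.8% and 24.9%. Isg15, Oas1a, Oas3, Oasl1 and Cmpk2 were not above background on the unstimulated arrays and were kept only through stimulated groups, so they could only rise. Of the 12 detected on both arrays of the groups compared, 12 rose after LPS and 11 after ROS. Over the 17 alternatives 12 to 17 targets were measured and 12 to 17 rose after each stimulus, and with no scaling the medians were 4.36, 1.69 and 2.21. The changes after LPS were led by Ifit3 (8.58 ± 0.12), Ifit2 (7.80 ± 0.11) and Rsad2 (7.72 ± 0.17). After ROS they were led by Oasl2 (3.99 ± 0.16), Ifit3 (3.53 ± 0.12) and Oas2 (3.21 ± 0.11), and the antiviral genes Mx1 and Oas1a did not pass. Isg15, the ubiquitin-like antiviral modifier, was at least 139-fold higher after LPS (limma, adjusted p = 2.88e-06) and at least 7.35-fold higher after ROS (limma, adjusted p = 8.22e-05). Such bounds compare the brighter group's mean with the lowest signal that counts as above background in the dimmer group.

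Of 19 measured targets of IRF1 and interferon-gamma (21 listed), 17 rose and 1 fell after LPS, with a median of 1.54, and 12 rose and 2 fell after ROS, with a median of 0.55. Of these, Gbp5 and Cxcl10 were not above background on the unstimulated arrays and were kept through the stimulated groups, so they could only rise. Nos2, called as lower after ROS, was not detected on the ROS arrays. Among genes detected on both arrays of the groups compared, 15 of 17 rose and 1 fell after LPS. After ROS 10 of 16 such genes rose and 1 fell. Of the 19, LPS was higher than ROS for 14 and lower for 2. Under the alternatives 11 to 18 rose after LPS and 8 to 14 after ROS. The shares of all genes called as higher were 24.7% after LPS, 21.8% after ROS and 24.9% in LPS against ROS. Cxcl10, a T-cell chemoattractant, was at least 283-fold higher after LPS (limma, adjusted p = 4.24e-06) and at least 2.08-fold higher after ROS (limma, adjusted p = 0.00166). Gbp5, an interferon-induced GTPase, was at least 27.8-fold higher after LPS (limma, adjusted p = 1.3e-05) and at least 7.47-fold higher after ROS (limma, adjusted p = 0.000183). Igtp rose by 3.80 ± 0.10 after LPS and 2.13 ± 0.10 after ROS, and Nlrc5, the activator of MHC class I genes, by 1.85 ± 0.11 after ROS. Ciita, the activator of MHC class II genes, fell after LPS (-3.60 ± 0.30; limma, adjusted p = 0.000229) and after ROS (-1.56 ± 0.30; limma, adjusted p = 0.00899).

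Among known targets of the cytokine STATs, most of those of STAT6 fell after both stimuli, while those of STAT3 and STAT5 included rises and falls after LPS. Of 10 measured STAT3 targets (13 listed), 4 rose and 3 fell after LPS, while 5 fell and 5 did not pass after ROS. The shares of all genes were 24.7% up and 29.0% down after LPS, and 21.8% up and 18.0% down after ROS. Myc, called as lower after LPS, was not detected on the LPS arrays. Among the 9 STAT3 targets detected on both arrays of the groups compared, 4 rose and 2 fell after LPS. Fos, an AP-1 subunit, was at -3.62 ± 0.17 after LPS and -6.30 ± 0.17 after ROS, and Il1rn, the IL-1 receptor antagonist, rose after LPS by 3.48 ± 0.15. Of 7 measured STAT5 targets (8 listed), 2 rose and 2 fell after each stimulus, where 53.7% of all genes were called after LPS and 39.8% after ROS. Ccnd2, a cyclin of the G1 phase, rose by 2.25 ± 0.17 after LPS and 3.40 ± 0.17 after ROS. Of 13 measured STAT6 targets of IL-4 (18 listed), 9 fell and 1 rose after each stimulus, with medians of -1.98 after LPS and -1.24 after ROS. The shares of all genes that fell were 29.0% after LPS and 18.0% after ROS. Clec10a, called as lower after LPS, was not detected on the LPS arrays. Among the 12 targets detected on both arrays of the groups compared, 8 fell and 1 rose after LPS. Under the alternatives 8 to 11 fell after LPS and 8 to 10 after ROS. Mrc1, the macrophage mannose receptor, fell after both (-3.19 ± 0.11 after LPS and -4.12 ± 0.11 after ROS). Egr2 was at -3.81 ± 0.12 after LPS, Pparg at -3.36 ± 0.15 after LPS, Retnla at -4.40 ± 0.14 after ROS and Arg1, arginase 1, at -3.32 ± 0.14 after ROS. The exceptions were Clec7a, the beta-glucan receptor dectin-1, after LPS (1.05 ± 0.18) and the chemokine Ccl22 after ROS (2.53 ± 0.15). Stat6 mRNA itself passed in neither comparison, as given above.

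Cell type markers moved with the groups, and their part in these results was not tested. The summed intensity of 12 dendritic cell markers (14 listed) was 54900 to 59600 on the LPS arrays, 57600 to 58100 on the ROS arrays and 106000 to 118000 on the unstimulated arrays. Of these, 12 were detected on both arrays of the ROS and unstimulated groups and 11 of the LPS group. Only probes detected on at least 3 arrays were named, so detection of a named marker cannot test the labelled cell type. For comparison with the marker counts that follow, 24.7% of all genes rose and 29.0% fell after LPS. After ROS the shares of all genes were 21.8% and 18.0%. After LPS none of the 12 dendritic cell markers rose and 8 fell. After ROS 4 rose (Fscn1 2.67, Ccr7 0.93, Zbtb46 0.76 and Batf3 0.69) and 5 fell (H2-Aa -2.54, H2-Ab1 -1.79, H2-Eb1 -1.71, Ciita -1.56 and Cd74 -0.71). For 7 macrophage markers (12 listed) the sums were 18800 to 20600 in LPS, 9930 to 14800 in ROS and 21900 to 24100 in unstimulated cells. After LPS 3 of the 7 rose (Fcgr1 4.51, Adgre1 0.79 and Marco, which was not detected on the unstimulated arrays). The 3 that fell were Mertk (-2.49), C1qb (-2.10) and C1qc (-1.09). After ROS none rose, 3 fell (C1qb -5.67, C1qc -5.06 and Mertk -1.78) and 4 did not pass. For 12 neutrophil and granulocyte precursor markers (14 listed) they were 19100 to 19400 in LPS, 45100 to 48700 in ROS and 59100 to 60700 in unstimulated cells, and Ngp, Prtn3, Mpo and Ctsg were not detected on the LPS arrays. After LPS 1 of the 12 rose and 11 fell. After ROS 4 rose (Ctsg 2.30, Prtn3 1.43, Mpo 1.16 and Elane 0.53) and 6 fell, led by Camp (-2.28) and Mmp9 (-2.20). For 4 mast cell and basophil markers (9 listed) the sums were 12700 to 14500 in LPS, 6570 to 6900 in ROS and 1490 to 1640 in unstimulated cells. After LPS 1 of the 4 rose, Hdc (4.46), and 3 fell, Cpa3 (-2.71), Gata2 (-2.31) and Fcer1a, which was not detected on the LPS arrays. After ROS 3 of the 4 rose (Cpa3 2.48, Fcer1a 2.20 and Hdc 2.16). Sums for 3 plasmacytoid dendritic cell markers (6 listed) were 3140 to 3190 in LPS, 2630 to 2810 in ROS and 2810 to 2930 in unstimulated cells. Bst2, also on the ISGF3 list, rose by 3.75 after LPS, while Tcf4 fell (-0.65) and Spib was not detected on the LPS arrays. Sums for 4 stromal markers (7 listed) were 3250 to 3600 in LPS, 1330 to 1390 in ROS and 741 to 750 in unstimulated cells. Dcn was 4.55 higher after LPS, and Col1a1 was not detected on the ROS arrays. Among the 4 stromal markers 2 rose and none fell after LPS, while 1 rose (Acta2) and 2 fell (Dcn and Col1a1) after ROS. The higher stromal sum in ROS than in unstimulated cells is therefore not a rise of the list. The 1 erythroid marker measured (6 listed), Hba-a1, was at 330 to 358 in LPS, 1390 to 1430 in ROS and 1020 to 1060 in unstimulated cells. Sums for 3 natural killer cell markers (8 listed) were 145 to 205 in LPS, 306 to 350 in ROS and 171 to 251 in unstimulated cells, with Klrb1c not detected on the LPS arrays. Of 10 T and B cell markers 1, Cd79b, was named here. It was not detected on the LPS arrays, and stood at 65.4 to 84.9 in ROS and 31.8 to 35.6 in unstimulated cells.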

How the data were processed

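The deposited table of 25697 probes gives the intensity of each probe on each of the 6 arrays on a linear scale, with a detection p-value for 5 of them, from GenomeStudio 2009.2 per the submitters' processing notes. The authors' second table holds quantile normalised log2 values of the 11220 probes detected on at least 3 arrays, both read from the values.

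Background was corrected by normexp in limma 3.58.1 (R 4.3.3), followed by an offset of 16, quantile normalisation between arrays and log2. The detection limit of the second LPS array, which has no detection p, was read from the authors' table as lying between 160.52 and 160.57. The 11622 probes with a detection p under 0.05 on each array of 1 group or more were kept, and 10435 of them had a gene, giving 7897 genes by their brightest probe. Only probes of the authors' table were named, through the platform annotation (10558 with a symbol, 662 without), of which 10551 matched RefSeq. The model had 1 coefficient per group over all 6 arrays, with 3 residual and 3.02 prior degrees of freedom, and Benjamini-Hochberg adjustment over the kept probes. In data simulated for ROS against unstimulated over 11622 probes, 66, 67 and 67 were changed by 1, 2 and 3 on the log2 scale. The model recovered 59.1%, 82.1% and 98.5% of these changes. A far smaller share of probes changed there than was called in the real data, so these rates do not give the recovery here. With 2 arrays a group, the number of arrays limits the precision.

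Alternatives were no background correction, an offset of 50, the authors' values, median or no scaling, other filters, the mean of a gene's probes, a replicate block, only the groups compared and leaving out each array. Named genes are every member, the 3 nearest genes of a member, and from each list up to 3 genes with the largest changes called in a comparison. Further ones were chosen after their values were seen. They are Mx1, Oas1a, Isg15, Jak2, Jak3, Irf4, Irf8, Myc, Clec10a, Clec7a, Ccl22, marker genes and genes given for the second stimulus beside the first. The members and gene lists were chosen with earlier results of these data known, so their counts are no independent support.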

Additional observations from a re-analysis of the deposited data

How the results depend on the processing

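Of 510 values (10 genes, 3 comparisons, 17 alternatives), 434 kept their direction and their side of the threshold, 26 lost the call, 38 gained one and 12 changed sign. After ROS, 5 members were called, against 9 (8 higher, 1 lower) with no background correction, the authors' log2 values or an offset of 50, and 8 with probes detected on all 6 arrays. Leaving out 1 array gave 3 to 5, with 3 without unstimulated array 1 or 2, and over all genes 1893 to 3291 against 3146, with 1893 without unstimulated array 1 and 1908 without unstimulated array 2. After LPS, 5 members were called, against 8 (4 higher, 4 lower) with no scaling, and 4 to 5 on leaving out 1 array. In LPS against ROS 4 members were called, against 6 with no background correction (4 higher, 2 lower) or no scaling (2 higher, 4 lower), 5 with median scaling (2 higher, 3 lower), and 3 to 4 on leaving out 1 array.

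Scaling by the median or not at all moved the median of all genes by -0.47 and -0.71 after LPS, -0.09 and -0.20 after ROS, and -0.38 and -0.51 in LPS against ROS. Higher and lower calls over all genes then numbered 869 and 4180 or 615 and 5184 after LPS (1950 and 2289 as reported), 1360 and 1738 or 1019 and 2088 after ROS (1723 and 1423), and 1111 and 3923 or 926 and 4381 in LPS against ROS (1963 and 2438). Under these scalings, median first, the sign turned after LPS for Irf5 (-0.0324, -0.27), Stat3 (-0.28, -0.52) and Stat5a (-0.35, -0.58), and in LPS against ROS for Irf9 (-0.0048, -0.14) and Stat6 (-0.26, -0.40). Stat6 after LPS was -0.793 and -1.03 under these scalings, both called as lower, and ran from -0.328 to 0.104 on leaving out 1 array, with 0.104 without LPS array 1 and 0.06 without unstimulated array 1. The causes were not tested.

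The labels do not say whether same-numbered arrays belong together. Their deviations correlated at -0.02, 0.02 and -0.10 between groups. No shift shared by same-numbered arrays was seen, which cannot show whether they were paired. With the replicate block 4 members were called after ROS, 5 after LPS and 3 in LPS against ROS. With the ROS numbers exchanged, a block added after seeing the data, 6 members and 3012 genes were called after ROS. Signals near background limit the sizes for Irf7, Stat2 and the dimmest probes of Irf1.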
